A study of Mus musculus with 6 samples.

Results

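The ABCA lipid transporters described here are *Abca1*, *Abca2*, *Abca3*, *Abca5*, *Abca6*, *Abca7*, *Abca8b* and *Abca9*, together with *Abcg1*, a sterol transporter of a related subfamily. They are 9 of the 16579 genes in the expression table, and all 9 passed the filter on low counts that left 12256 genes, *Abca8b* only through its counts in Becn1f/f;Pf4-iCre libraries. The family was selected on the measured difference between genotypes, in which *Abca6* and *Abca9* stood among the most changed genes, so the genotype values of the 9 genes are given as a description and not as a test. The study asked what loss of Becn1, an autophagy protein, does to megakaryocytes (MKs), the marrow cells that shed platelets. MKs were taken from mouse bone marrow by fluorescence-activated cell sorting and their RNA was sequenced in 6 libraries. Becn1f/f mice, whose *Becn1* alleles are flanked by loxP sites and which carry no Cre, gave 3 libraries. Becn1f/f;Pf4-iCre mice, which carry the same floxed alleles and a Cre recombinase driven by *Pf4* regulatory sequence, gave the other 3. All mice were 3 months old, and since the labels do not say how many mice stand behind a library, the spread between libraries may be partly technical.

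ABCA proteins are large membrane ATPases that move sterols and phospholipids across or out of membranes. ABCA1 loads cholesterol and phospholipid onto lipid-poor apolipoproteins and ABCG1 passes sterol to larger lipoprotein particles, and the genes of both are classical targets of the liver X receptors (LXRs) in macrophages. ABCA2 and ABCA5 are proteins of endosomes and lysosomes, ABCA3 fills the lamellar bodies of lung epithelium, and ABCA7 has been tied to phospholipid handling and phagocytosis, whereas the substrates of ABCA6, ABCA8 and ABCA9 are less well known.

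Of the 9 genes, 4 lie side by side on chromosome 11 (GRCm38, GENCODE M21 annotation, minus strand for each). *Abca8b* runs from 109932190 to 109995845, *Abca9* from 110100749 to 110168196, *Abca6* from 110176820 to 110251776 and *Abca5* from 110269369 to 110337716. A further gene, *Abca8a*, sits between *Abca8b* and *Abca9*, and it was at 0 to 3 counts per library and did not pass the filter. The cluster spans 406 kb, each of its genes has 39 annotated exons, and the gaps between neighbors measure from 4.77 to 29.8 kb, with 8.62 kb between *Abca9* and *Abca6*. The other members are scattered over chromosome 4 (*Abca1*), chromosome 2 (*Abca2*), chromosome 10 (*Abca7*) and chromosome 17 (*Abca3* and *Abcg1*).

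The sequences around the start sites are described here, and any link between them and the genotype difference was not tested. Windows are printed for the cluster members *Abca9*, *Abca8b* and *Abca5* and for *Abca1*, the best known member outside the cluster. They are RefSeq windows of 300 bases on GRCm38.p6, each from 250 bases before to 50 after the start site and written 5′ to 3′ along the gene. Capitals mark the core motif TATAAA of the TATA element, the pentamer CCAAT, or the hexamer GGGCGG that is known as the GC element, each searched on both strands, so that a motif on the other strand is seen as its reverse complement. Windows were found for 7 of the 9 members, and *Abca6* and *Abcg1* had none.
Abca9, chr11:110168104-110168403, minus strand: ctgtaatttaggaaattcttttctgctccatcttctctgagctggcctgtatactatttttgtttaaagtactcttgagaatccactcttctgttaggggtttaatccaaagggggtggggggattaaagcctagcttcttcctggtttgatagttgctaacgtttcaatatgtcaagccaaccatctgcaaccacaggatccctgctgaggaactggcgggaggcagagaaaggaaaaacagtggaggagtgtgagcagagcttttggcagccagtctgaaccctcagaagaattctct
Abca8b, chr11:109995796-109996095, minus strand: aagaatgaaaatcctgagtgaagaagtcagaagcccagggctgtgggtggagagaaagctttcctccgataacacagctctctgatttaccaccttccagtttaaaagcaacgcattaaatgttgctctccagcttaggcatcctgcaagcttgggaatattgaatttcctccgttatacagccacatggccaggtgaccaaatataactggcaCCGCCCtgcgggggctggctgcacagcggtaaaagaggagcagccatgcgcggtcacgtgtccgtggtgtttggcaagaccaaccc
Abca5, chr11:110337667-110337966, minus strand: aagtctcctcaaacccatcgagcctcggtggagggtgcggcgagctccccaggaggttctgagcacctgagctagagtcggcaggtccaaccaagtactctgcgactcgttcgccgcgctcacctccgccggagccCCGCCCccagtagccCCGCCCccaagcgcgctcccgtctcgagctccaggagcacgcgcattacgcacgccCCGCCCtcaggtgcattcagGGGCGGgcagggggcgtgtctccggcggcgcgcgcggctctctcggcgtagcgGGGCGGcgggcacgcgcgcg
Abca1, chr4:53159846-53160145, minus strand: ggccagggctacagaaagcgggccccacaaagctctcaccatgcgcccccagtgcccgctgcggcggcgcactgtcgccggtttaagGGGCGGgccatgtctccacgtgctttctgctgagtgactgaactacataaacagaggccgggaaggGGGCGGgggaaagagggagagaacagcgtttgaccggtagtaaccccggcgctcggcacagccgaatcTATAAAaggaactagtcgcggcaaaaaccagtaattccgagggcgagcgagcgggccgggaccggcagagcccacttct

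The *Abca9* window had 45.33% GC and 2 CpG dinucleotides and held none of the 3 motifs. *Abca8b* had 51.33% GC, 10 CpG dinucleotides and 1 GC element. *Abca5* had 72.33% GC, 40 CpG dinucleotides and 5 GC elements. Over all 32851 windows in the table the median GC content was 52.67% and the median CpG number was 7, so the *Abca5* window was much richer in CpG than a typical one and the *Abca9* window was poorer. *Abca1* had 26 CpG dinucleotides, 2 GC elements and a TATA element 29 bases before the start site. The windows of *Abca2*, *Abca3* and *Abca7*, which are not printed, held 26, 29 and 19 CpG dinucleotides. A GC element occurred in 35.7% of all windows, a TATA element in 13.6% and a CCAAT element in 37.4%. The ETS core GAGGAA was found 2 times in the *Abca8b* window and 1 time in that of *Abca9*, and 28.3% of all windows held it. The E-box CACGTG was found in the *Abca8b* and *Abca1* windows and in 7.15% of all windows. The nuclear receptor site AGGTCA, present in 16.3% of windows, the same site repeated 4 bases apart, present in 0.0152%, the glucocorticoid receptor element, present in 0.00913%, and the AP-1 site TGACTCA, present in 5.2%, did not occur in any of the 7 windows. These matches describe letters in a window and show neither binding nor its absence.

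At the protein level the cluster genes encode chains of 1620 (*Abca8b*), 1623 (*Abca9*), 1624 (*Abca6*) and 1642 residues (*Abca5*), computed from the longest reading frame of their GENCODE transcripts. *Abca9* and *Abca8b* share 63.4% of aligned residues, and *Abca6* shares 54.0% with *Abca9* and 53.9% with *Abca8b*. *Abca5* is more distant, with 41.4% to 42.8% identity to those 3. *Abca1*, *Abca2* and *Abca7* encode longer chains of 2261, 2433 and 2167 residues, and *Abca1* and *Abca7* share 54.1% with each other but 30.2% to 32.2% with the cluster proteins. Few stretches of sequence were shared between the transcripts. Runs of 50 bases that also occur in *Abca9* made up 0.25% of those of *Abca6*, no such run was shared between *Abca9* and *Abca8b*, and 1.43% of those of *Abca8b* were also in *Abca8a*.

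The depth and make-up of the libraries set the frame for these values. The deposited estimated counts summed to between 16467560 and 17156728 per library. *Becn1* itself was at 108.8 to 127.5 CPM (counts scaled to library size) in Becn1f/f libraries and at 104.4 to 109.8 CPM in Becn1f/f;Pf4-iCre libraries. Its ranges thus overlapped, and the values are sums over the whole gene that do not separate the floxed exons. The study reported a significant fall of *Becn1* mRNA in sorted CD41-positive marrow cells by RT-qPCR. For the protein, it reported less Becn1 in marrow MKs by imaging flow cytometry. In platelets it found none detectable by western blot and confocal imaging. The reason for the unlike RNA results was not tested. The label "megakaryocytes" was checked against marker genes. The MK markers *Itga2b* (integrin alpha IIb, the antigen CD41) and *Pf4* (platelet factor 4) had mean FPKM values (fragments per transcript length and library size) of 55.7 and 17.9 in Becn1f/f libraries, whereas *Lyz2* (lysozyme, of macrophages and granulocytes) had 6154 and the neutrophil gene *S100a8* had 10270. Of other MK markers in Becn1f/f libraries, *Nbeal2* and *Itgb3* had means of 43.1 and 20.9 FPKM. *Tubb1*, *Gp9* and *Gp1ba* were at 2.38, 2.10 and 1.55 FPKM. The listed MK and platelet markers summed to 720 CPM there, the macrophage markers to 5445 and the neutrophil markers to 14698. Most of the macrophage sum was *Lyz2*, at 4539 CPM, and without that gene the sum was 905 CPM. Neutrophil markers and *Lyz2* were thus far more abundant than the summed MK markers, whereas the other macrophage markers were of similar size. The share of MKs among the cells was not tested. In bulk RNA, fewer cells of a type and less RNA per cell cannot be told apart.

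Per transcript length, *Abca7* was the most abundant of the 9 genes in Becn1f/f libraries, at 46.5, 55.0 and 63.5 FPKM in libraries 1, 2 and 3. It was followed by *Abca2* at 20.8, 22.8 and 27.6 FPKM and *Abca3* at 14.6, 22.9 and 23.4 FPKM, whose ranges overlapped. *Abcg1* was next at 14.3, 10.4 and 12.9 FPKM. The mean FPKM of *Abca7* was above that of 85.4% of all tested genes, and that of *Abcg1* above 50.4%. *Abca9*, the most abundant gene of the cluster, was at 7.74, 7.47 and 7.94 FPKM, with a mean FPKM above that of 38.6% of tested genes. *Abca1* at 1.70 ± 0.446 FPKM (SD, n = 3) and *Abca6* at 1.18 ± 0.367 FPKM (SD, n = 3) overlapped in their ranges. *Abca5* and *Abca8b* came last, at 0.20 ± 0.030 and 0.123 ± 0.112 FPKM (SD, n = 3 each), and they too overlapped. The sterol exporter *Abca1* was thus a minor transcript in these libraries, and *Abca7* alone made up 44.9% of the summed FPKM of the 9 genes.

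**Figure D1:**
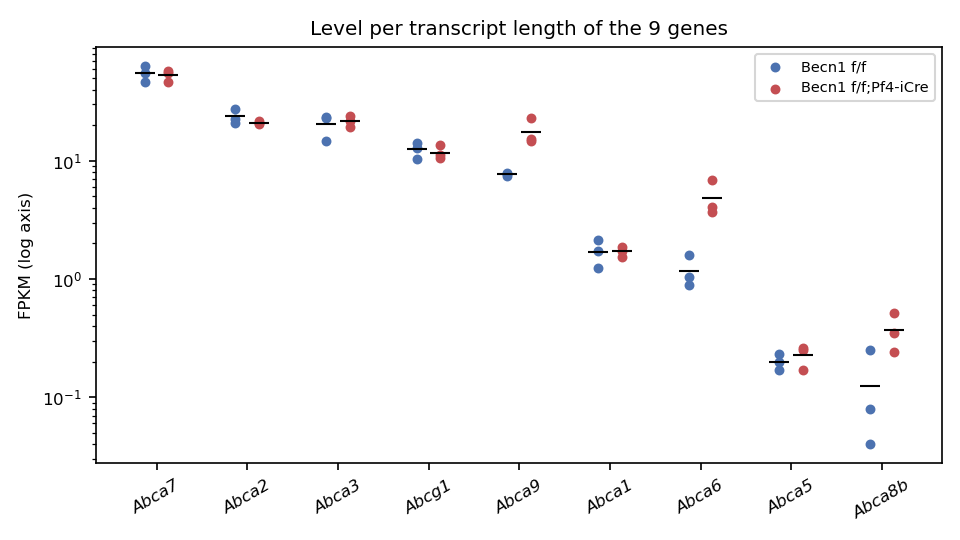
FPKM (log axis) of the 9 transporter genes, ordered by their mean in Becn1f/f libraries. Points are libraries, 3 per genotype, and bars are means. *Abca9* moved from 7.72 to 17.6 FPKM and *Abca6* from 1.18 to 4.88 FPKM, while *Abca7*, *Abca2*, *Abca3*, *Abcg1* and *Abca1* overlapped between genotypes.

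In Becn1f/f;Pf4-iCre libraries the order changed in the middle and at the bottom. *Abca7* was still first at 53.3 ± 5.68 FPKM (SD, n = 3), but *Abca9*, at 15.2, 22.9 and 14.7 FPKM in libraries 1, 2 and 3, now overlapped in range with *Abca2* and stood above *Abcg1*. *Abca6*, at 3.71, 6.90 and 4.03 FPKM, stood above *Abca1*, with no overlap. The share of *Abca9* in the summed FPKM of the 9 genes was 6.30% in Becn1f/f and 13.3% in Becn1f/f;Pf4-iCre libraries, and that of *Abca6* was 0.961% and 3.69%. The share of *Abca7* was 44.9% and 40.2%.

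*Abca6*, *Abca9* and *Abca8b* were the 3 members with higher levels in Becn1f/f;Pf4-iCre mice. *Abca6* had 98, 73 and 87 counts in Becn1f/f libraries 1, 2 and 3, and 323, 582 and 339 counts in Becn1f/f;Pf4-iCre libraries 1, 2 and 3. Scaled to library size this was 5.08 ± 0.985 CPM against 24.9 ± 8.87 CPM (SD, n = 3 each), with a fitted log2 fold change (also given as log2 ratio, positive where Becn1f/f;Pf4-iCre libraries were higher) of 2.29 ± 0.25 (SE). The lowest Becn1f/f;Pf4-iCre library lay well above the highest Becn1f/f library, and Becn1f/f;Pf4-iCre library 2 stood above the others. *Abca9* had 745, 727 and 773 counts in Becn1f/f libraries and 1529, 2151 and 1445 counts in Becn1f/f;Pf4-iCre libraries, or 44.1 ± 2.48 and 102 ± 23.9 CPM (SD, n = 3 each). Its log2 fold change was 1.22 ± 0.17 (SE), its Becn1f/f libraries lay close together, and library 2 was again the highest of the Becn1f/f;Pf4-iCre libraries. *Abca8b* had far fewer counts, 8, 4 and 20 in Becn1f/f libraries and 28, 49 and 41 in Becn1f/f;Pf4-iCre libraries. This was 0.620 ± 0.461 against 2.36 ± 0.642 CPM (SD, n = 3 each), and the log2 ratio was 1.90 ± 0.45 (SE). The CPM of the genotypes did not overlap, but the margin was small, from 1.13 CPM in the highest Becn1f/f library to 1.68 CPM in the lowest Becn1f/f;Pf4-iCre library, and in FPKM the genotypes overlapped (0.04 to 0.25 against 0.24 to 0.52). The standard error of *Abca8b* was the largest of the 3.

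**Figure D2:**
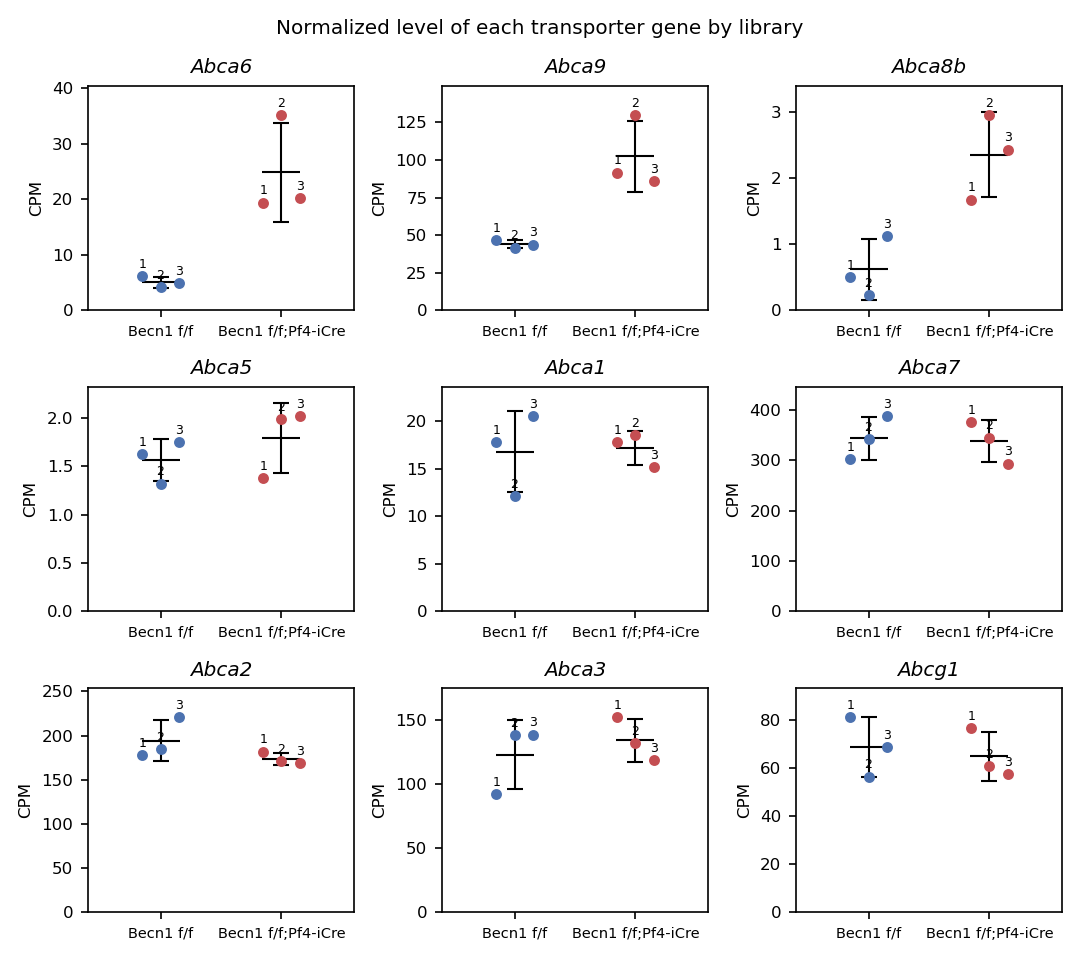
CPM of each gene by genotype, with an axis from 0 in every panel. Points are libraries, numbered by replicate, and bars are the mean and SD of 3 libraries. In *Abca6*, *Abca9* and *Abca8b* the genotypes are apart, with Becn1f/f;Pf4-iCre library 2 the highest, and in the other 6 genes they overlap.

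The remaining 6 genes overlapped between genotypes. *Abca5*, the last gene of the cluster, was at 26, 23 and 31 counts in Becn1f/f libraries and 23, 33 and 34 counts in Becn1f/f;Pf4-iCre libraries, with a log2 fold change of 0.20 ± 0.29 (SE). A change of *Abca5* within this error was not detectable at this depth. *Abca1* was at 16.8 ± 4.29 and 17.2 ± 1.77 CPM (SD, n = 3 each), and its log2 fold change was 0.03 ± 0.19 (SE). *Abcg1*, its partner in sterol export, was at 68.8 ± 12.4 and 64.9 ± 10.2 CPM (SD, n = 3 each), a log2 ratio of -0.08 ± 0.16 (SE). *Abca7* was at 4814, 5947 and 6859 counts in Becn1f/f libraries and 6254, 5721 and 4934 counts in Becn1f/f;Pf4-iCre libraries, which gave a log2 fold change of -0.03 ± 0.15 (SE). For *Abca2* and *Abca3* the log2 fold changes were -0.16 ± 0.13 (SE) and 0.13 ± 0.17 (SE). The 3 genes with the most counts, *Abca7*, *Abca2* and *Abca3*, had values from -0.16 to 0.13.

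Against all tested genes, a fold change of at least 1.5 with an unadjusted *P* under 0.05 (edgeR's quasi-likelihood test), the thresholds of the study, was passed upward by 3 of the 9 members and by 1.36% of genes, and downward by 0 members and 0.938% of genes. An adjusted p under 0.05 was reached by 2 members, *Abca6* and *Abca9*, and by 0.0408% of genes. Genotypes did not overlap in CPM, with higher values in Becn1f/f;Pf4-iCre libraries, for 3 members and 5.42% of genes, and with lower values for 0 members and 5.18% of genes. Genes past the first pair of thresholds are called upregulated or downregulated. Since these values chose the members, nothing is read from the counts. The median log2 fold change was 0.13 over the 9 members, 1.56 over the 4 genes of the cluster, -0.03 over the 5 members outside it and -0.02 over all tested genes.

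The proportions within the cluster come from the same genotype values that chose the members, and they too are only a description. *Abca6* counts were 13.2%, 10% and 11.3% of *Abca9* counts in Becn1f/f libraries 1, 2 and 3, and 21.1%, 27.1% and 23.5% in Becn1f/f;Pf4-iCre libraries. The 2 genes were thus not higher by the same factor, and the share of *Abca6* was larger in every Becn1f/f;Pf4-iCre library. In FPKM the share was 15.2% ± 4.65 and 27.3% ± 2.80 (SD, n = 3 each). *Abca5* counts were a smaller share of the higher *Abca9* counts, at 3.55% ± 0.427 and 1.80% ± 0.482 (SD, n = 3 each), while *Abca5* itself overlapped between genotypes. *Abca8b* as a share of *Abca9* overlapped, at 1.40% ± 1.06 and 2.32% ± 0.504 (SD, n = 3 each).

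With the genotype means removed, which takes out the difference that chose the members, *Abca6* and *Abca9* still varied together between libraries. The correlation of their log2 CPM deviations over the 6 libraries was 0.95, and 0.78 on the FPKM scale. For both genes the largest deviation was that of Becn1f/f;Pf4-iCre library 2, at 0.55 for *Abca6* and 0.37 for *Abca9*. For *Abca8b* the correlation was 0.43 to *Abca6* and 0.32 to *Abca9* (0.40 and 0.55 on the FPKM scale), and it was higher to *Abca1* (0.82) and *Abca5* (0.78). Among the members outside the cluster, *Abca3* and *Abca7* varied together (0.86), as did *Abca2* and *Abca7* (0.82). These values describe 6 points that share library depth and cell make-up between genes.

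The neighbors of the cluster were examined as well. Of 37 genes annotated within 1 Mb of the cluster, other than its 4 members, 13 were in the expression table and 8 passed the filter. *Arsg*, which encodes a lysosomal sulfatase, was at 13.2, 12.9 and 18.9 CPM in Becn1f/f libraries and 9.47, 8.38 and 8.61 CPM in Becn1f/f;Pf4-iCre libraries. It fell by 0.77 ± 0.19 (SE, log2 scale) and passed the fold and unadjusted thresholds, but not adjustment (adjusted p = 0.30, edgeR quasi-likelihood test, Benjamini-Hochberg over all tested genes). Without Becn1f/f library 3 it did not pass, and 0 of the 8 neighbors did. The other 7 had log2 fold changes between -0.21 and 0.19. They were -0.03 for *Gna13*, a G protein subunit, -0.03 for *Amz2*, -0.09 for *Slc16a6*, -0.21 for *Wipi1*, an autophagy protein that binds phosphoinositides, and -0.02 for *Prkar1a*, a regulatory subunit of protein kinase A. On the other side of the cluster, *Map2k6*, a kinase of the p38 pathway, had 0.19 and the potassium channel gene *Kcnj2* had 0.10. *Map2k6*, the nearest of them beyond *Abca5*, ranged from 22.3 to 24.7 CPM in Becn1f/f libraries and from 24.9 to 29.1 CPM in Becn1f/f;Pf4-iCre libraries, without overlap but with an adjusted p of 0.91 in the edgeR test.

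**Figure D3:**
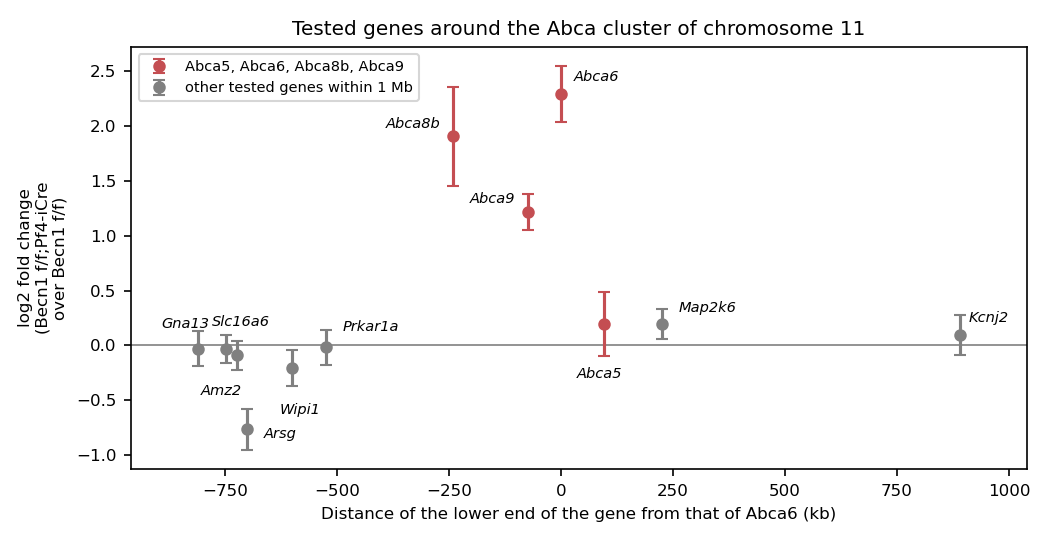
Log2 fold change between genotypes, with its standard error, of the tested genes around the cluster, plotted at the distance of each gene's lower end from that of *Abca6* in kb. *Abca8b*, *Abca9* and *Abca6* lie between 1.22 and 2.29, *Abca5* at 0.20 and the 8 other genes between -0.77 and 0.19.

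Of 43 further genes of the ABC transporter superfamily, 37 were in the table and 28 were tested. *Abca4*, a retinoid transporter of photoreceptors, was the only one past the thresholds. It had 27, 32 and 25 counts in Becn1f/f libraries and 47, 53 and 30 counts in Becn1f/f;Pf4-iCre libraries, a log2 ratio of 0.65 ± 0.30 (SE, adjusted p = 0.78 in the edgeR test). Its CPM overlapped between genotypes, at 1.41 to 1.84 against 1.78 to 3.20. It dropped below the thresholds in DESeq2 and in 4 of the 6 fits that left out a library. Of the 28 genes, 12 were higher and 16 lower, their log2 fold changes ran from -0.35 to 0.65 and the median was -0.01. The most abundant, the antigen peptide transporters *Tap2* and *Tap1* and the translation factor *Abcf1*, had 64.0, 62.5 and 59.3 FPKM in Becn1f/f libraries and log2 fold changes of -0.14, -0.01 and -0.14.

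Genes of the pathways in which these transporters act were counted next, from lists written with earlier results of these data known. Of 29 sterol efflux and LXR genes, 24 were tested, 3 were upregulated and 0 were downregulated. *Cyp27a1*, which makes the LXR ligand 27-hydroxycholesterol, was at 20.6, 29.7 and 27.2 CPM in Becn1f/f libraries and 47.8, 56.1 and 36.4 CPM in Becn1f/f;Pf4-iCre libraries. Its log2 fold change was 0.86 ± 0.19 (SE, adjusted p = 0.18 in the edgeR test). *Apoe*, the apolipoprotein that accepts exported sterol, was at 76.7, 84.3 and 108.7 CPM against 164.5, 164.1 and 116.6 CPM, with 0.72 ± 0.18 (SE, adjusted p = 0.28 in the edgeR test). *Apoc2*, the cofactor of lipoprotein lipase, went from 4.82 ± 1.57 to 7.71 ± 1.19 CPM (SD, n = 3 each; log2 fold change 0.67, adjusted p = 0.68 in the edgeR test). The genotypes did not overlap in any of these 3 genes. Becn1f/f;Pf4-iCre library 2, the highest in *Abca6* and *Abca9*, was also the highest in *Cyp27a1*, while *Apoe* and *Apoc2* were highest in library 1. The members *Abca1* and *Abcg1* stayed within the spread between libraries. Of the 24 tested genes of this list, 6 had an unadjusted *P* under 0.05 in edgeR's test, against 6.31% of all tested genes. Without overlap in CPM, 5 were higher and 0 lower in Becn1f/f;Pf4-iCre libraries, against 5.42% and 5.18% of all tested genes. LXR activity was not tested. Among the most abundant genes of the list, *Smpdl3a*, a phosphodiesterase, had a log2 fold change of 0.35, without overlap between genotypes. The corepressor *Ncor1* had 0.04.

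Of 25 tested sterol synthesis and uptake genes, of 26 listed, 0 passed the thresholds in either direction, 1 had an unadjusted *P* under 0.05 in edgeR's test, and DESeq2 also called 0. *Srebf2*, the master regulator of the pathway, and the synthesis enzyme *Fdps* had log2 fold changes of 0.001 and -0.21. Of 28 tested genes of lysosomal lipid handling, storage and scavenging, of 29 listed, 0 were upregulated and 1 was downregulated, *Vldlr*, the very low-density lipoprotein receptor, which DESeq2 did not call, at 3.08 ± 0.348 and 2.01 ± 0.324 CPM (SD, n = 3 each; log2 fold change -0.61, adjusted p = 0.74 in the edgeR test). *Psap*, *Npc2* and *Asah1*, which encode the saposin precursor, a lysosomal sterol carrier and acid ceramidase, had log2 fold changes of 0.25, 0.37 and 0.33. The genotypes did not overlap in *Npc2* and *Asah1*. Of these 28 genes, 6 had an unadjusted *P* under 0.05 in edgeR's test, against 6.31% of all tested genes. Without overlap in CPM, 6 were higher and 2 lower in Becn1f/f;Pf4-iCre libraries, against 5.42% and 5.18% of all tested genes. Of 21 tested genes of phosphatidylserine and phospholipid transport, of 24 listed, 0 were upregulated and 1 was downregulated, *Xkr8*, a scramblase activated in apoptosis. *Xkr8* was at 5.96, 5.98 and 5.76 CPM in Becn1f/f libraries and 3.78, 3.62 and 3.86 CPM in Becn1f/f;Pf4-iCre libraries, and it fell by 0.65 ± 0.20 (SE, log2 scale, adjusted p = 0.45 in the edgeR test). The flippases *Atp11b* and *Atp8b4* and their partner *Tmem30a*, the most abundant of this list, had log2 fold changes of -0.02, -0.13 and 0.09. Over the 4 lists together, 5 of 98 tested genes passed the thresholds, 3 higher and 2 lower, 0 with an adjusted p under 0.05 in edgeR's test and 15 with an unadjusted *P* under 0.05. Over all tested genes, 2.3% passed the thresholds and 6.31% had an unadjusted *P* under 0.05. DESeq2 gave 4 past the thresholds and 2 with an adjusted p under 0.05, and the median log2 fold change in edgeR's fit was 0.03. Without Becn1f/f library 1, or without Becn1f/f;Pf4-iCre library 2, 3 genes passed.

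**Figure D4:**
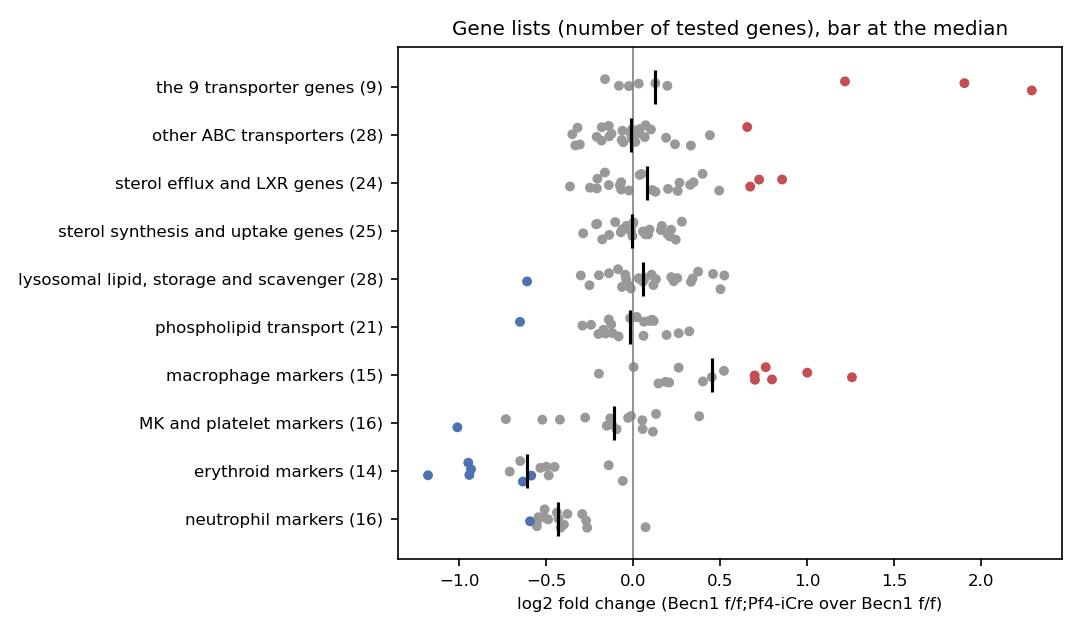
Log2 fold change of each tested gene in the lists named at the left, with the number of tested genes in brackets and a bar at the median. Red points passed the thresholds upward and blue points downward. The 3 red points of the top row are *Abca9*, *Abca8b* and *Abca6*, the macrophage markers have their median at 0.45 and the erythroid markers at -0.61.

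Markers of other cell types moved with genotype too. Over all 12256 tested genes, 5579 were higher and 6677 lower in Becn1f/f;Pf4-iCre libraries, and 1.36% were upregulated and 0.938% downregulated. Of 16 macrophage markers, 15 were tested, 14 were higher in Becn1f/f;Pf4-iCre libraries and 6 were upregulated, their median log2 ratio was 0.45 and none was at 0 counts in all libraries. DESeq2 called 6 of the markers and limma on log2(FPKM + 1) called 2. The 6 markers upregulated in edgeR's fit included *Mrc1*, *Cd163*, *Siglec1* and *Maf*, which mark resident macrophages, and the complement gene *C1qc*. Other markers of the list overlapped between genotypes, such as *Adgre1*, *Vcam1* and *C1qa*, with log2 ratios of 0.001, -0.20 and 0.21. *Mrc1*, the mannose receptor, had 9.78, 7.42 and 10.7 CPM in Becn1f/f libraries and 20.9, 27.0 and 18.8 CPM in Becn1f/f;Pf4-iCre libraries, a log2 fold change of 1.26 (adjusted p = 0.057 in the edgeR test). The summed CPM of the macrophage markers ranged from 4698 to 6281 in Becn1f/f libraries and from 6412 to 8111 in Becn1f/f;Pf4-iCre libraries. Most of it was *Lyz2*, and without that gene the ranges were 877 to 933 CPM and 966 to 1201 CPM. Library 2 was the highest of the Becn1f/f;Pf4-iCre libraries in *Abca6*, *Abca9* and *Abca8b*. Of the 15 tested macrophage markers, 3 had the same library highest (*Mrc1*, *Maf* and *Axl*), 8 had library 1 and 4 had library 3, and both sums were highest in library 1. With genotype means removed, the correlation with the sum that includes *Lyz2* was -0.41 for *Abca6*, -0.23 for *Abca9* and -0.92 for *Abca8b* over the 6 libraries, and with the sum without *Lyz2* it was -0.27, -0.07 and -0.54. Between genotypes the summed markers without *Lyz2* had means of 905 and 1068 CPM. The ratio of mean CPM, Becn1f/f;Pf4-iCre over Becn1f/f, was 2.39 for *Mrc1*, 2.01 for *Siglec1* and 1.00 for *Adgre1*. It was 4.89 for *Abca6*, 2.32 for *Abca9* and 3.80 for *Abca8b*. The part of macrophage RNA in the transporter values was not tested.

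**Figure D5:**
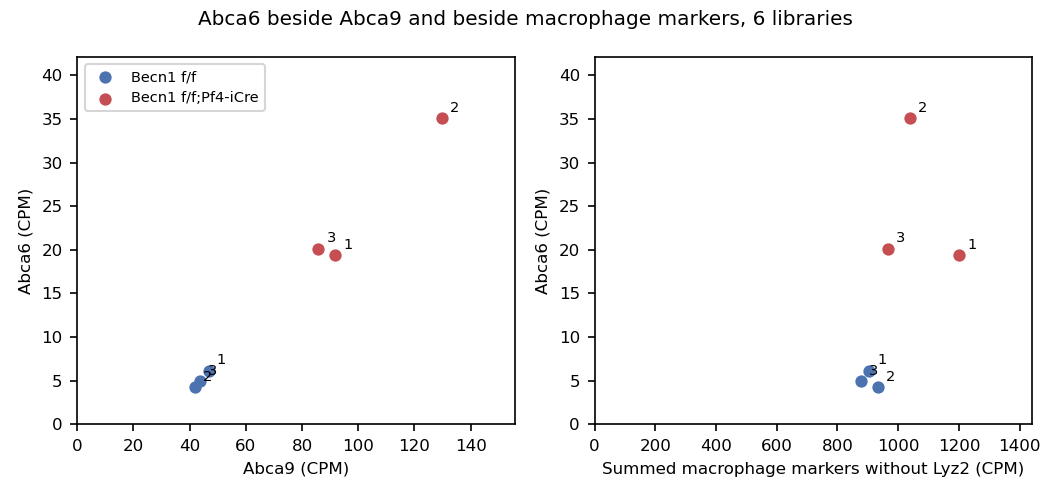
*Abca6* CPM against *Abca9* CPM (left) and against the summed CPM of macrophage markers without *Lyz2* (right) in the 6 libraries, numbered by replicate within each genotype. The Becn1f/f;Pf4-iCre libraries lie above the Becn1f/f libraries in all 3 measures, with *Abca6* highest in library 2 (35.1 CPM) and the sum highest in library 1 (1201 CPM), while single markers such as *Mrc1* (27.0 CPM) were highest in library 2.

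Of the other marker lists, those of dendritic and stromal cells had median log2 fold changes of 0.08 and 0.03, and the rest had negative medians. All 14 erythroid markers were lower in Becn1f/f;Pf4-iCre libraries, as were 6677 of all 12256 tested genes. Of the 14, 6 were downregulated, and the median log2 fold change was -0.61. DESeq2 called 3, the fit corrected for GC content and length 4 and limma on log2(FPKM + 1) 1. Of 16 neutrophil markers, 15 were lower and 1, *Mmp9*, was downregulated, with a median of -0.43 (1 in DESeq2, 0 in the corrected fit and 0 in limma). Of 16 tested MK and platelet markers, 5 were higher, 11 lower and 1, *Pf4*, was downregulated (log2 fold change -1.01, adjusted p = 0.42 in the edgeR test), with a median of -0.11 and a summed level of 720 ± 130 and 643 ± 43.3 CPM (SD, n = 3 each). *Igll1* among B cell markers and *Kdr* among endothelial markers (0 endothelial calls in DESeq2) were downregulated, *Flt3* among dendritic cell markers was upregulated, and 0 of the tested markers of T and NK cells, of mast cells, basophils and eosinophils, and of stromal cells passed. Whether these shifts bear on *Abca6*, *Abca9* and *Abca8b* was not tested.

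Genes whose log2 CPM followed the 3 cluster genes most closely were looked up among 11682 other tested genes with a mean of at least 1 CPM. The 6 libraries form 2 groups by genotype, so the correlation takes in the genotype difference and is given as a description of likeness over 6 libraries. For *Abca6* the closest were *Deptor*, an inhibitor of the mTOR kinase (r = 0.999, 29.7 and 44.3 CPM in the 2 genotypes), *Il13ra1*, an interleukin receptor chain (0.993, 37.7 and 73.7 CPM), and *Rnf150* (0.991, 8.37 and 13.9 CPM). For *Abca9* they were *Slc8a1*, a sodium-calcium exchanger (0.994), *Rnf150* (0.993) and *Deptor* (0.991), so that *Deptor* and *Rnf150* were among the 3 closest for both genes. For *Abca8b* they were *Uimc1* (0.995), *Sik1* (0.994) and *Macf1* (0.987). A correlation above 0.9 was reached by 161 genes for *Abca6*, 156 for *Abca9* and 117 for *Abca8b*.

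Base composition moved with the genotype difference across all genes, with a Spearman correlation of -0.34 between log2 fold change and transcript GC content over genes, which are not independent replicates. The transcripts of *Abca6*, *Abca9* and *Abca8b* had 43.7%, 44.2% and 42.7% GC, below the median of 49.7%. *Abca5*, with 39.8%, had the lowest GC content of the 9 and a log2 fold change of 0.20, while *Abca7*, *Abca2* and *Abca3* had 58.9%, 57.5% and 54.8%. Correcting GC content and length in each library removes this trend by construction, so the correlation of 0.02 after it is no test. In that fit the log2 fold changes of *Abca6*, *Abca9* and *Abca8b* were 2.19, 1.12 and 1.78, and that of *Abca5* was 0.02.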

How the data were processed

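MK RNA, from FACS of bone marrow at 3 months of age, was sequenced on the DNBSEQ platform, in 3 Becn1f/f and 3 Becn1f/f;Pf4-iCre libraries. The authors filtered reads and mapped them with HISAT (Bowtie2, GRCm39 and mm39 are also named in the submitters' processing notes), and the counting tool is not given in the sources used here. For each of 16579 genes the authors deposited an estimated count, not whole for 10.3% to 11.3% of genes per library, and an FPKM value scaled for transcript length and library size. Other columns of the table were set aside, namely 16 of per-sample values (TPM, normalized counts and 4 columns for a library absent from the labels) and 8 of group means.

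Estimated counts were rounded, filtered with filterByExpr (12256 genes), scaled by TMM and compared by the quasi-likelihood test of edgeR 4.0.16 (R 4.3.3, genotype only, Benjamini-Hochberg adjustment over all tested genes). Thresholds were those of the study, 1.5-fold and *P* under 0.05 without adjustment. The totals of 16467560 to 17156728 counts leave a larger counting error in genes with few counts per library, such as *Abca8b*, *Abca5*, *Abca4*, *Vldlr*, *Kdr* and *C1qc*, and precision is set by the 3 libraries per genotype. Steps were tested on simulated data. The members and gene lists were chosen with earlier results of these data known. The text names all members, and in each pathway list the genes past the thresholds and the 3 most abundant in FPKM. It also names all tested neighbors of the cluster and, for *Abca6*, *Abca9* and *Abca8b*, the 3 genes of highest Pearson correlation. Of the marker lists only part of the genes under the same rule are named. Of the genes under the rule, 2 are not reported here.

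Gene positions, exon numbers, GC content and reading frames came from GENCODE M21 (GRCm38), neighbors from a RefSeq gene table and promoter windows from RefSeq, both on GRCm38.p6, and proteins were aligned with Biopython 1.88. No position came from the deposited table. Alternatives were DESeq2 1.42.0, DESeq2 size factors, upper-quartile normalization, other filters, a replicate block, limma 3.58.1 on log2(FPKM + 1) or log2(FPKM + 0.1), an adjusted threshold and leaving out each library. A correction for GC content and length was chosen after seeing the data.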

Additional observations from a re-analysis of the deposited data

How the results depend on the processing

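The 282 genes past the thresholds became 5 at an adjusted p under 0.05, and 121, 137 and 432 with limma on log2(FPKM + 1), on the same scale with a mean FPKM of at least 1, and on log2(FPKM + 0.1). Among the same 12256 genes DESeq2 gave 71 with an adjusted p under 0.05. The share of higher calls, 59.2%, was 72.7%, 70.1% and 50% in those 3 fits. Leaving out a library gave 225 to 410 genes. The 5 genes of the lipid lists became 0 at an adjusted p under 0.05 and 3 to 6 without a library. The 1 neighbor of the cluster became 0 at an adjusted p under 0.05 and 0 to 1 without a library. The 1 further ABC transporter became 0 with DESeq2, the GC and length correction, an adjusted p under 0.05, upper-quartile normalization and each of the 3 limma fits, 2 with no filter on low counts, and 0 to 1 without a library. The causes were not tested.

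Of 141 alternative log2 fold changes of members, 136 moved by less than the spread between replicates. The exceptions were *Abca6* at 1.41 in both limma fits on log2(FPKM + 1), and *Abca8b* at 0.29 and 1.14 in limma on log2(FPKM + 1) and log2(FPKM + 0.1) and at 2.68 without Becn1f/f library 3. The correlation of *Abca9* and *Abca8b* within genotypes was 0.32 in CPM and 0.55 in FPKM. With each library left out, *Abca6* stayed between 1.96 and 2.45. *Abca8b* has no value with at least 10 counts in every library, where it is removed. Replicate numbers gave no sign of pairing, though this check cannot exclude it. Deviations of same-numbered libraries correlated at 0.07, -0.28 and 0.20, and those of other pairs between -0.30 and 0.24. With the replicate block 296 genes passed the thresholds. Low counts limit *Abca8b* and *Abca5* most.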
